A study of Mus musculus with 15 samples.

Results

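The clustered replication-dependent histone genes were examined in RNA sequencing of mouse embryonic hearts. Members were the protein-coding genes whose symbol in the GENCODE vM21 annotation starts with Hist1h, Hist2h, Hist3h or Hist4h, which gave 67 of the 55335 gene identifiers in the deposited table. Of these, 6 encode histone H1, 18 H2A, 18 H2B, 12 H3 and 13 H4. A further 3 genes with such symbols are annotated as pseudogenes and were left out. Values came from 15 libraries of embryonic heart at E14.5, of which 7 were WT, 4 were Adamts16+/- and 4 were Adamts16+/H355Q. Adamts16 codes for a metalloprotease secreted into the extracellular matrix, and the series' text calls the first changed allele a knockout and the other a mutant. Both are written over a wild-type allele in the labels. The labels give no strain, and they do not say whether a library held 1 heart or several, or whether libraries came from separate litters, so a p-value here measures only the spread between libraries.

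Replication-dependent histone genes supply the core histones H2A, H2B, H3 and H4 and the linker histone H1 that package newly copied DNA during S phase. Their messenger RNAs usually end in a conserved stem-loop, bound by the protein Slbp, in place of a poly(A) tail, and are degraded when DNA replication stops. Several of these genes also carry a polyadenylation signal further downstream and give polyadenylated transcripts, which are known from cells that have left the cycle. Replication-independent histone genes, such as those for H3.3, H2A.Z and H1.0, lie outside the clusters and give polyadenylated transcripts throughout the cell cycle. The fetal heart at this stage still grows by division of its muscle cells.

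The labels name total RNA and a library kit, and whether poly(A) RNA was selected is not given in the sources used here. The table's unit, FPKM (fragments per kilobase of gene and per 1e6 fragments), is a level per gene length. The length used, RNA selection and the handling of shared fragments also enter it and are not given. Values of different genes are therefore set side by side as listed FPKM, not as amounts of RNA. All 13 cardiomyocyte markers passed the filter on low values, with means of 17.5 to 4906 FPKM, so the libraries carry the labelled tissue's defining genes. Adamts16 was low in all groups, at 0.0324 to 0.235 FPKM in WT, 0.0635 to 0.235 in Adamts16+/- and 0.0677 to 0.125 in Adamts16+/H355Q, and these values do not check the labels. The low values of long genes gave implied depths of 37.25 to 58.65 M (1e6) fragments per library. These were 42.05 to 55.85 M in WT, 37.25 to 48.25 M in Adamts16+/- and 51.35 to 58.65 M in Adamts16+/H355Q. Every Adamts16+/- library was thus below every Adamts16+/H355Q library, and depth and genotype cannot be told apart between these groups. The libraries did not fall apart by genotype alone. On the first principal component over all tested genes, which held 27.6% of the variance, the 4 Adamts16+/- libraries lay at -18.7 to -11.8, beside WT libraries 1 to 4 at -19.6 to -12.2. The 4 Adamts16+/H355Q libraries lay at 8.5 to 23.1, beside WT libraries 5, 6 and 7 at 8, 18 and 36.1. The labels give no difference between these WT libraries, and each comparison with WT therefore sets a genotype against WT libraries on both sides of this component.

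Clustered histone genes had low FPKM in these libraries. Over the 15 libraries the median of the 67 member means was 0.199 FPKM, and only 12 members reached the mean of 0.5 FPKM needed to enter the tests. The highest member just under that limit was Hist1h3c at 0.473 FPKM, and the lowest just over it was Hist1h2bn at 0.599 FPKM. A gap separated 7 members with means of 2.05 to 9.05 FPKM from the other 60, whose highest was Hist1h4m at 0.773 FPKM. These 7 were Hist1h2bc at 9.05, Hist3h2a at 8.06, Hist1h1c at 6.75, Hist2h2be at 4.47, Hist3h2ba at 3.79, Hist1h4i at 2.83 and Hist1h2bg at 2.05 FPKM. They held 64.7% to 80.3% of the summed level of all 67 members in each library. The whole set made up only 0.0113% to 0.0181% of all FPKM in a library. The 55 members below the limit had a median of 4.7 implied fragments per library, with members between 0 and 41.2, and they were left out of the main test. Without that limit 66 of the 67 members entered the fit and limma called 0 in each comparison. At an unadjusted p under 0.05 there were 7, 2 and 6 members in Adamts16+/- against WT, Adamts16+/H355Q against WT and Adamts16+/- against Adamts16+/H355Q. Of all 37951 genes in that fit, 4549, 3998 and 6016 were at that p, in the same order.

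**Figure D1:**
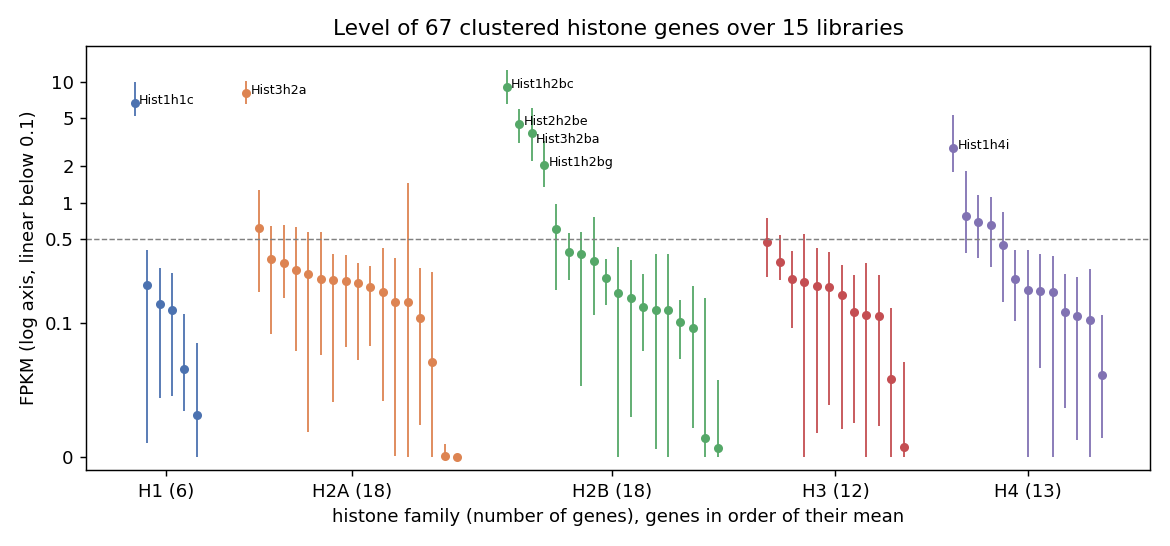
Mean FPKM (points) and the range over 15 libraries (lines) of each of the 67 clustered histone genes, ordered within the H1, H2A, H2B, H3 and H4 families; the axis is logarithmic above 0.1 FPKM and linear below it, and the dashed line marks the 0.5 FPKM limit for testing. The 7 named genes stand above 2 FPKM in the mean. No H3 gene has a mean at the dashed line, though the ranges of Hist1h3c, Hist1h3h and Hist1h3d cross it.

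Most members lie in a few dense clusters. In GRCm38 coordinates, 54 Hist1 genes lie on chr13:21715763-23934851, in runs of 18, 5, 29 and 2 genes, 10 Hist2 genes lie on chr3:96219865-96270132, 2 Hist3 genes on chr11:58948920-58956830 and Hist4h4 alone on chr6:136801553-136804415. The 7 higher members came from 3 of these clusters. Both Hist3 genes were among them, beside 4 of 54 Hist1 genes and 1 of 10 Hist2 genes.

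The 3′ ends of the annotated transcripts differ among the 7 higher members, and their sequences are shown because they bear on how each messenger RNA can end. A stem-loop of the histone type, 16 bases with a stem of 6 and a loop of 4, was found in the annotated transcripts of 46 of the 67 members, against 0.148% of all protein-coding transcripts in GENCODE vM21. Among the 21 members without it, 16 have fewer than 40 annotated bases after the stop codon. It was present in 5 of the 7 higher members, which are printed here in DNA letters with up to 5 flanking bases on each side and the stem-loop in capitals.
Hist1h1c stem-loop: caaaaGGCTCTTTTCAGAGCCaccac
Hist3h2a stem-loop: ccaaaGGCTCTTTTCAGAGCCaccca
Hist3h2ba stem-loop: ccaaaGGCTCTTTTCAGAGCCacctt
Hist1h2bg stem-loop: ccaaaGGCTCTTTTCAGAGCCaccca
Hist1h4i stem-loop: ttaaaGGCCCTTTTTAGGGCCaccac

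In 4 of these 5 genes the element was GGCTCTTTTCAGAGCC, the form found in 25 members, and Hist1h4i carried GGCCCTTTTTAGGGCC, which it shared with Hist2h4. All H4 genes with a match had a stem that differed from that of the 25. The annotated transcripts of Hist1h2bc, which has 2 exons, and of Hist2h2be held no match. For comparison, the stem-loops of 3 lower genes of the H3 and H4 families are printed in the same way.
Hist1h3c stem-loop: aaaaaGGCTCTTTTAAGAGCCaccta
Hist1h4m stem-loop: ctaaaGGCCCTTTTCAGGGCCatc
Hist1h4h stem-loop: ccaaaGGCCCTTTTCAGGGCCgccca

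The annotated transcripts were also searched for the polyadenylation signal. The hexamer AATAAA lay in the last 40 bases of the transcript in 4 of the 7 higher members and in 8 of the other 60 (13.3%), compared with 39.3% of all protein-coding transcripts. Counting the variant ATTAAA as well gave 5 of 7 and 11 of 60. The median number of annotated bases after the stop codon was 742 in the 7, with a range of 200 to 2192, and 89 in the 60. These counts describe the annotation and not the transcripts in the hearts. The last 30 bases of the 5 transcripts are printed with the hexamer in capitals.
Hist1h1c 3′ end: ttctAATAAAaagcgtttagttttcattca
Hist3h2a 3′ end: AATAAAataagagtacgtgtataacataag
Hist2h2be 3′ end: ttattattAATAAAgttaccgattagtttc
Hist3h2ba 3′ end: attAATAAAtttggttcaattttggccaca
Hist1h4i 3′ end: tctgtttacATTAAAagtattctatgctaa

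Hist1h1c, Hist3h2a, Hist3h2ba and Hist1h4i therefore carry both elements in their annotated transcripts, with 169 to 1643 bases between the stem-loop and the annotated end. Hist2h2be carries the hexamer alone, Hist1h2bg the stem-loop alone, and Hist1h2bc neither within the windows searched.

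H1 genes encode linker histones, which bind the DNA between nucleosomes. Hist1h1c (ENSMUSG00000036181, chr13:23738808-23740367, 1 exon) encodes H1.2 and accounted for most of the family's level. It lay at 6.75 FPKM, compared with 0.207 for Hist1h1b, 0.143 for Hist1h1e and 0.129 for Hist1h1a. Hist1h1b ranged from 0.0106 to 0.308 FPKM in WT, from 0.112 to 0.225 in Adamts16+/- and from 0.0762 to 0.401 in Adamts16+/H355Q. Hist1h1t, a testis form, was at 0.0316 FPKM and listed at 0 in 3 libraries. Summed over the 6 genes, H1 reached 7.33 ± 1.72 FPKM (SD, n = 15), while the replication-independent H1f0, outside the clusters, was at 84.8 FPKM.

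H2A and H2B form dimers that join the nucleosome on either side of the H3-H4 tetramer. In the H2A family Hist3h2a (ENSMUSG00000078851, chr11:58954685-58956830, 1 exon) stood at 8.06 FPKM, and the next genes were Hist1h2ag at 0.619, Hist1h2ah at 0.338 and Hist1h2ae at 0.318 FPKM. Hist3h2a shares its annotated start and strand with Trim17, so its fragments may be divided between the genes. Trim17 itself was at 0.233 FPKM, with a range of 0.107 to 0.32. Summed over 18 genes H2A reached 11.6 ± 1.40 FPKM (SD, n = 15), compared with 104 FPKM for H2afz, which encodes the variant H2A.Z.

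Of the 5 families H2B had the highest sum, 22.2 ± 3.57 FPKM (SD, n = 15) over 18 genes. Its leading genes were Hist1h2bc (ENSMUSG00000018102, chr13:23684199-23692908, 2 exons), Hist2h2be (ENSMUSG00000068854, chr3:96221119-96223738, 1 exon), Hist3h2ba (ENSMUSG00000056895, chr11:58948920-58949533, 1 exon) and Hist1h2bg (ENSMUSG00000058385, chr13:23571396-23572013, 1 exon). Hist1h2bn was the only other H2B gene above the testing limit, at 0.599 FPKM. The testis H2B gene Hist1h2ba was at 0.00688 FPKM and listed at 0 in 11 libraries, and its H2A neighbour Hist1h2aa at 0.000625 FPKM and listed at 0 in 14.

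H3 and H4 form the tetramer at the core of the nucleosome. None of the 12 H3 genes reached the testing limit, and their sum was 2.23 ± 0.419 FPKM (SD, n = 15). The highest were Hist1h3c at 0.473, Hist1h3d at 0.321, Hist2h3c1 at 0.231 and Hist1h3h at 0.219 FPKM, while H3f3a and H3f3b, which encode the replication-independent H3.3, were at 72.3 and 74.5 FPKM. H4 has no such replacement gene in the lists used here, and its 13 clustered genes summed to 6.57 ± 1.25 FPKM (SD, n = 15). Hist1h4i (ENSMUSG00000060639, chr13:22040636-22041362, 1 exon) led at 2.83 FPKM, followed by Hist1h4m at 0.773, Hist1h4k at 0.686 and Hist1h4h at 0.653 FPKM.

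Levels of single members are uncertain where genes are near-identical copies, because the handling of fragments that match several genes is not given in the sources used here. The coding sequence of 8 members equals that of another member, and 47 members match another of the same length at 95% or more. The share of 100-base windows of a transcript that also occur in another histone gene had a median of 5.1% in the 7 higher members, with a range of 0% to 44.9%, and of 35.7% in the other 60. In 24 of the 60 it exceeded 50%, and in none of the 7. Hist1h2ao and Hist1h2ap share 92.7% and 92.2% of their windows with other histone genes and were at 0.222 and 0.199 FPKM, and Hist1h2bq and Hist1h2br, at 94.8% and 86.4%, were at 0.378 and 0.386 FPKM. Hist2h2aa2, with all of its windows shared, was listed at 0 in all 15 libraries. Its copy Hist2h2aa1 was listed at 0 in 13 libraries and rose above that only in WT 5, at 0.77 FPKM, and in Adamts16+/H355Q 3, at 1.46 FPKM. These 6 genes were chosen after their values were seen. In addition, 24 members are overlapped by another annotated gene, mostly predicted microRNAs on the opposite strand, and whether the counting used strand is not given.

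Many H2A and H2B genes stand head to head and share the sequence between their starts. There were 13 pairs of members on opposite strands with starts 175 to 659 bases apart, and 12 of them joined an H2A with an H2B gene. The H2B gene had the higher mean in 8 of the 12 and the H2A gene in 4. The pair with the largest ratio was Hist1h2bc with Hist1h2ac, at 9.05 and 0.216 FPKM, a 41.9-fold difference across 250 bases. Next among the pairs with a partner above 0.5 FPKM came Hist2h2be with Hist2h2ac, at 4.47 and 0.151 FPKM, a 29.7-fold difference across 238 bases. Hist1h2bg exceeded Hist1h2ae by 6.46-fold, at 2.05 and 0.318 FPKM, across 175 bases. In each of these 3 pairs the H2B gene was higher in 15 of 15 libraries. Hist1h2ag and Hist1h2bj showed the opposite order, with the H2A gene at 0.619 and the H2B gene at 0.238 FPKM and the H2A gene higher in 14 of 15 libraries. The partners of these pairs lie next to the same stretch of sequence and differed in FPKM.

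**Figure D2:**
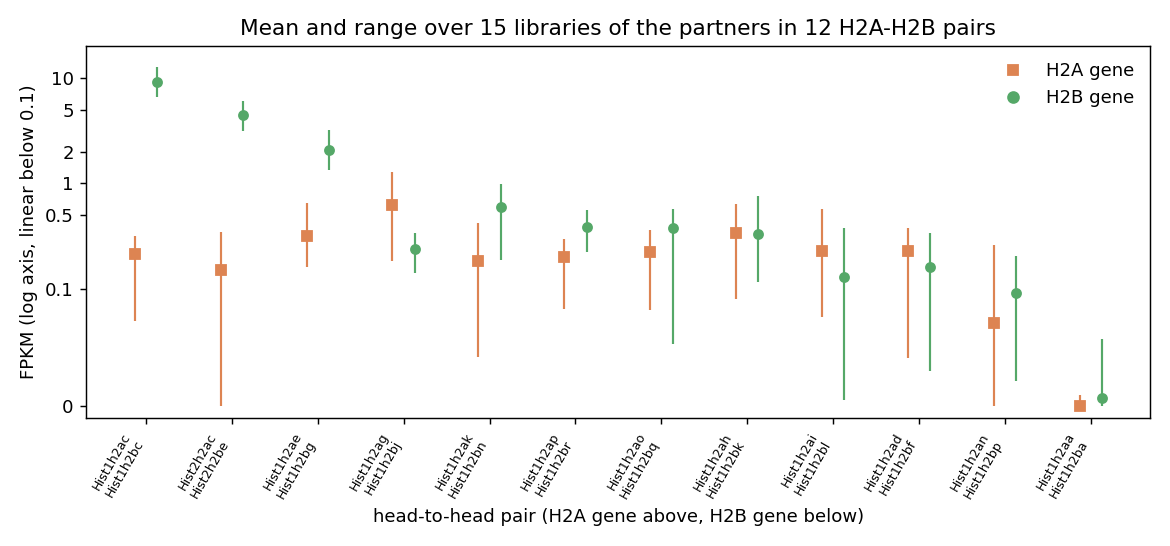
Mean FPKM (symbols) and the range over 15 libraries (lines) of the H2A gene (squares) and the H2B gene (circles) in 12 head-to-head pairs, ordered by the higher partner; the axis is logarithmic above 0.1 FPKM and linear below it. In the 3 leftmost pairs the ranges do not overlap, with the H2B gene at 9.05, 4.47 and 2.05 FPKM, and in most others the ranges overlap.

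Promoter sequences of RefSeq (GRCm38.p6), 250 bases before to 50 after each start, could be matched to 62 of the 67 members, though not to Hist1h2bc or Hist2h2be. Searched on both strands, the CCAAT box (CCAAT) lay in 53 of the 62, compared with 37.4% of all 32851 promoters in the table. It was in all 6 H1, 18 H2A, 16 H2B and 10 H3 promoters and in 3 of 12 H4 promoters. The TATA box (TATAAA) lay in 35 of the 62 and in 13.6% of all promoters. The octamer (ATTTGCAT), known as the element bound by Oct1 in H2B promoters, lay in 6 of 16 H2B and 7 of 18 H2A promoters and in no H1, H3 or H4 promoter, compared with 1.7% of all. The element known from H1 promoters as the AC box (AAACACA) lay in 5 of 6 H1, 2 of 18 H2A and 2 of 16 H2B promoters, in no H3 or H4 promoter and in 7.2% of all. The windows of head-to-head genes can overlap, as for Hist1h2ae (chr13:23571171-23571470) and Hist1h2bg (chr13:23571150-23571449). The same match can then be counted for the H2A and the H2B gene, so these counts are not of separate sequences. No motif of these contains another, and a match describes letters in this window, not binding.

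Of these promoters 3 are printed, each as the 250 bases before the RefSeq start, with matches to these 4 motifs on either strand in capitals. That of Hist1h2bg (chr13:23571150-23571399, plus strand) holds the whole stretch of 175 bases shared with Hist1h2ae, that of Hist3h2a (chr11:58954435-58954684, plus strand) belongs to the highest H2A gene, and that of Hist1h1c (chr13:23738557-23738806, plus strand) to the highest H1 gene.
Hist1h2bg promoter: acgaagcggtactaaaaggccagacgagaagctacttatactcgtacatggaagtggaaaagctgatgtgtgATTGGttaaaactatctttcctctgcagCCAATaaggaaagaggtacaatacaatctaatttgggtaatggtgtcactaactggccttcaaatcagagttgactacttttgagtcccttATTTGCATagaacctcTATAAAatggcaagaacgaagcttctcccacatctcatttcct
Hist3h2a promoter: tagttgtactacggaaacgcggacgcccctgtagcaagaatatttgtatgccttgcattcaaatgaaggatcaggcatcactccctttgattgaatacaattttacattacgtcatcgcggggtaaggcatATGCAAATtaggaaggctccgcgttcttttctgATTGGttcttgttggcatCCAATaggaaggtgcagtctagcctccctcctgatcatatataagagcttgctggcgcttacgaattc
Hist1h1c promoter: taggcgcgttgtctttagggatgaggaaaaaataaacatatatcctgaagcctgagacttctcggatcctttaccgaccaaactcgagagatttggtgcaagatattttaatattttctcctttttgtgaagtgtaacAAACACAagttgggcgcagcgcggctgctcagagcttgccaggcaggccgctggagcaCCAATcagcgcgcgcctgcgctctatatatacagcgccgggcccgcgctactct

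Genotypes were then compared in the 12 members above the testing limit, 1 H1, 2 H2A, 5 H2B and 4 H4 genes. All 15 libraries entered 1 limma fit of log2(FPKM + 0.5) over 15172 genes, with Benjamini-Hochberg adjustment and genes under an adjusted p of 0.05 were called. Differences of low genes come out too small on this scale, because of the added 0.5 FPKM. In bulk hearts, fewer cells in S phase and less histone RNA per cell cannot be told apart. No member passed the test in any of the 3 comparisons, and no member had groups that did not overlap, compared with 5.79% of genes in Adamts16+/- against WT, 2.65% in Adamts16+/H355Q against WT and 25.7% between the 2 changed genotypes. The comparisons share groups, so they are not independent of each other.

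In Adamts16+/- against WT, limma called 0 of the 12 members, beside 2.75% of all genes tested. At an unadjusted p under 0.05 there were 3 of 12 members, Hist2h2be, Hist3h2a and Hist1h1c, beside 19.6% of all genes. All 3 had lower values in Adamts16+/-, a class that held 8.24% of all genes. The difference was below 0 in 10 of the 12, beside 47.1% of all genes, and its median was -0.18, compared with 0.01 over all genes. This count holds for the members that passed the limit and not for the whole set. Of the 66 members fitted without the limit 32 were below 0, with a median of 0.003, compared with -2.7e-04 over all genes there. Of the 35 that passed under TPM scaling 17 were below 0. Their median was 0.014, which was below the median of 0.076 over all genes under that scaling. More genes passed under TPM scaling, 18242 compared with 15172, so the sets compared differ from those of the main fit. With array weights the median of the 12 was -0.05, with 8 below 0.

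Hist2h2be lay between 3.95 and 5.99 FPKM in WT, with a median of 4.92, and at 4.12, 3.76, 3.15 and 3.67 FPKM in Adamts16+/- libraries 1 to 4. Of these 4 libraries, 3 were below the lowest WT library and the other was inside the WT range. The log2 difference was -0.37, with an SE of 0.107 and a limma adjusted p of 0.0752. Leaving out each library in turn gave adjusted p-values from 0.04165 to 0.1865, and the lowest, with a difference of -0.42, was without WT library 3. In Adamts16+/H355Q the gene was at 4.25, 5.35, 4.21 and 4.01 FPKM, all inside the WT range.

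Hist3h2a lay between 7.48 and 10.2 FPKM in WT, with a median of 8.34. In Adamts16+/- it was at 6.58, 7.22, 7.63 and 7.57 FPKM, with 2 libraries below the lowest WT value, and in Adamts16+/H355Q at 8.85, 7.96, 7.61 and 7.25 FPKM. Its log2 difference in Adamts16+/- was -0.23, with an SE of 0.0849 and a limma adjusted p of 0.153. Hist1h1c had a wider WT range, from 5.23 to 10.1 FPKM with a median of 7.58, and lay at 5.75, 5.30, 5.39 and 5.71 FPKM in Adamts16+/-. All 4 of these values were above the lowest WT library and below the other 6, and the log2 difference was -0.40 (SE 0.158, limma adjusted p 0.18). In Adamts16+/H355Q Hist1h1c was at 8.32, 5.86, 6.05 and 5.29 FPKM, with library 1 apart from the other 3.

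Among the other higher H2B genes, Hist1h2bc and Hist1h2bg lay inside the WT range in both changed genotypes, and Hist3h2ba did so in Adamts16+/H355Q only. Hist1h2bc lay between 6.53 and 12.7 FPKM in WT, with a median of 9.08, at 8.51, 7.59, 9.69 and 7.65 FPKM in Adamts16+/- and at 10.4, 8.43, 8.53 and 8.73 FPKM in Adamts16+/H355Q. Every one of these values was inside the WT range, and the log2 differences from WT were -0.14 (95% interval -0.46 to 0.17) and -0.04 (95% interval -0.35 to 0.28). Hist3h2ba lay between 2.93 and 6.07 FPKM in WT, with a median of 3.46, and at 2.66, 3.93, 2.20 and 3.34 FPKM in Adamts16+/-, where 2 libraries were below the lowest WT value. Its log2 difference there was -0.35 (SE 0.177, limma adjusted p 0.297). In Adamts16+/H355Q it was at 4.86, 3.43, 4.21 and 3.98 FPKM, inside the WT range. Hist1h2bg lay between 1.34 and 3.22 FPKM in WT, with a median of 2.25, at 1.98, 1.85, 1.89 and 1.37 FPKM in Adamts16+/- and at 2.16, 1.95, 2.07 and 1.98 FPKM in Adamts16+/H355Q, inside the WT range in both groups.

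**Figure D3:**
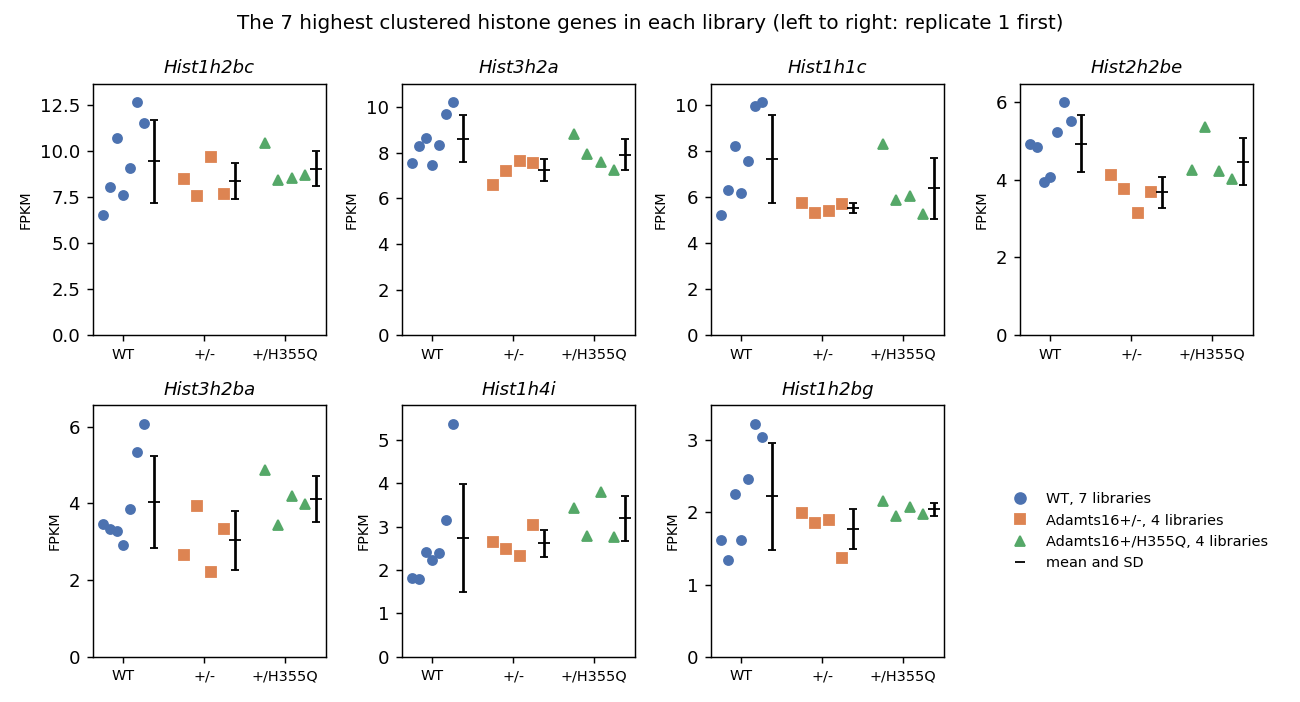
FPKM of the 7 highest clustered histone genes in each library of WT (circles), Adamts16+/- (squares) and Adamts16+/H355Q (triangles), with the mean and SD of each group in black and libraries in order of their number. In WT libraries 6 and 7 all 7 genes have their 2 highest WT values, and Hist2h2be in Adamts16+/- has 3 of 4 libraries below the lowest WT library at 3.95 FPKM.

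In Adamts16+/H355Q against WT, limma called 0 of the 12 members, beside 0.376% of all genes, and 0 of 12 had an unadjusted p under 0.05, beside 18.3% of all genes. The difference was below 0 in 8 of 12 members, beside 43.8% of all genes, with a median of -0.04 compared with 0.02. The direction rested on the WT libraries and the weighting. It was below 0 in 5 of 12 without WT library 6 (median 0.02), in 6 of 12 without WT library 7, and in 4 of 12 with array weights (median 0.03) or without WT libraries 5 to 7 (median 0.09). Of the 66 members fitted without the limit 34 were below 0, with a median of -0.0045. Hist1h4i was at 3.42, 2.78, 3.81 and 2.76 FPKM in Adamts16+/H355Q, while WT ranged from 1.79 to 5.36 FPKM with a median of 2.39. All 4 values were above 5 of the 7 WT libraries and below WT library 7, which stood apart at 5.36 FPKM. The log2 difference was 0.25 (SE 0.201, limma adjusted p 0.518), and leaving out each library in turn gave adjusted p-values from 0.05937 to 0.7388. In Adamts16+/- Hist1h4i was at 2.64, 2.48, 2.32 and 3.04 FPKM, with a log2 difference of 0.01 from WT.

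Between Adamts16+/- and Adamts16+/H355Q, limma called 0 of the 12 members, beside 10% of all genes, and 0 had an unadjusted p under 0.05, beside 28.9% of all genes. Lower values in Adamts16+/- were seen for 10 of 12 members, beside 52.7% of all genes, with a median of -0.16 compared with -0.02, and for 35 of the 66 fitted without the limit, with a median of -0.01. The smallest p-values belonged to Hist2h2be, with a log2 difference of -0.25 (SE 0.121, limma adjusted p 0.193), and to Hist3h2ba, with -0.40 (SE 0.20, limma adjusted p 0.196). The 95% intervals reached from -0.50 to 0.01 for Hist2h2be and from -0.83 to 0.02 for Hist3h2ba.

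**Figure D4:**
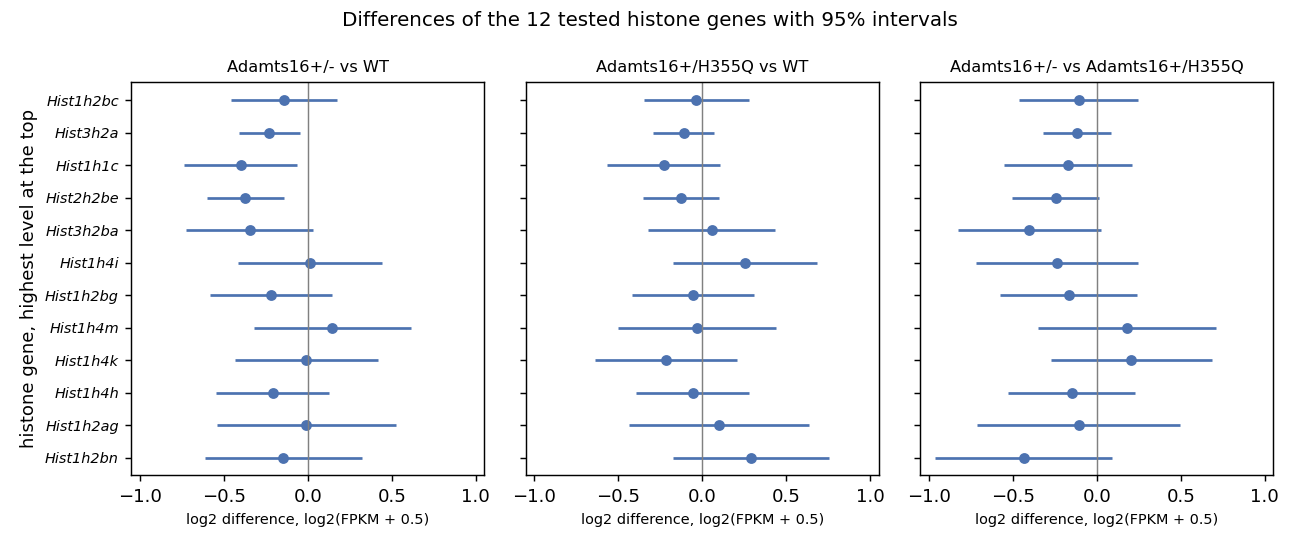
Log2 difference on the log2(FPKM + 0.5) scale (points) with its 95% interval (lines) for the 12 tested histone genes in the 3 comparisons, from the limma fit, with the highest gene at the top. In the left panel the intervals of Hist2h2be, Hist3h2a and Hist1h1c lie below 0 before adjustment, and in the other panels every interval crosses 0.

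The other members above the limit were lower and more variable. Over the 15 libraries Hist1h4m ranged from 0.38 to 1.83 FPKM, Hist1h4k from 0.35 to 1.16, Hist1h4h from 0.294 to 1.12, Hist1h2ag from 0.182 to 1.28 and Hist1h2bn from 0.188 to 0.982 FPKM. Their log2 differences lay between -0.44 and 0.29 in the 3 comparisons. The largest of these in size was that of Hist1h2bn between Adamts16+/- and Adamts16+/H355Q, at -0.44 (SE 0.247, limma adjusted p 0.26).

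The summed level of the higher members was spread most widely in WT. The 7 higher members summed to 31.1 to 51.9 FPKM in WT, 32.1 to 32.3 FPKM in Adamts16+/- and 34.0 to 42.3 FPKM in Adamts16+/H355Q. For all 67 members together the sum in WT was 52.5 ± 9.60 FPKM (SD, n = 7), that in Adamts16+/- 45.5 ± 3.01 FPKM (SD, n = 4) and that in Adamts16+/H355Q 50.2 ± 3.34 FPKM (SD, n = 4). The sums were 44.1, 45.4, 53.0, 43.3, 50.9, 62.3 and 68.2 FPKM in WT libraries 1 to 7, from 42.8 to 49.8 FPKM in Adamts16+/- and from 46.0 to 53.1 FPKM in Adamts16+/H355Q. WT libraries 6 and 7 were above every other library. The lower members were not spread most widely in WT: those with a mean from 0.5 to 2 FPKM summed to 3.01 to 3.82 FPKM in WT and to 1.70 to 5.02 FPKM in Adamts16+/-. By family, the sum of H2B genes lay between 19.1 and 30.5 FPKM in WT, 18.8 and 20.7 in Adamts16+/- and 21.9 and 23.7 in Adamts16+/H355Q. The H3 sum lay between 1.81 and 3.08 FPKM in WT, 1.72 and 2.94 in Adamts16+/- and 1.89 and 2.61 in Adamts16+/H355Q.

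Markers of neighbouring tissues also varied among the WT libraries. The summed level of 8 lung markers was 88.6 FPKM in WT library 7 and 0.182 to 15.8 FPKM in the other WT libraries, against 0.618 to 7.16 in Adamts16+/- and 0.255 to 2.99 in Adamts16+/H355Q, and 3 of the 8 passed the limit. The 8 thymus markers, of which 3 passed, summed to 23.1 FPKM in WT library 7 and 0.558 to 1.02 FPKM in the other WT libraries, 0.822 to 6.08 in Adamts16+/- and 0.718 to 18.4 in Adamts16+/H355Q. Liver markers, of which 6 of 8 passed, summed to 51.2, 34.96 and 38.9 FPKM in WT 5, 6 and 7 and to 5.84 to 17.2 FPKM in the remaining WT libraries, with 7.49 to 18.8 in Adamts16+/- and 9.91 to 33.9 in Adamts16+/H355Q. Skeletal muscle genes, of which 7 of 9 passed, summed to 276 to 386 FPKM in WT 5, 6 and 7 and to 160 to 211 in the remaining WT libraries. Their sums were 136 to 180 FPKM in Adamts16+/- and 148 to 280 in Adamts16+/H355Q. Red cell genes, of which 13 of 14 passed, summed to 15781 to 32799 FPKM in WT, 19987 to 30730 in Adamts16+/- and 15234 to 34402 in Adamts16+/H355Q. No marker of the lung, thymus or liver lists was at 0 in every library, and none passed the test in any comparison. Of the 13 cardiomyocyte markers 1 was lower in Adamts16+/- against WT, and 1 was higher and 3 were lower in Adamts16+/- against Adamts16+/H355Q. Likewise 3 red cell genes were higher and 2 muscle genes higher and 1 lower in Adamts16+/- against WT, and 2 red cell and 2 muscle genes were higher in Adamts16+/- against Adamts16+/H355Q. Over all genes tested, 2.75% were called in Adamts16+/- against WT, 0.376% in Adamts16+/H355Q against WT and 10% between the changed genotypes. The part of these tissues in the histone levels was not tested.

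Leaving out WT libraries changed the calls. Without WT libraries 1 to 4, 5 members passed the test as lower in Adamts16+/- against WT, among them Hist1h1c at -0.68 (limma adjusted p 0.007995), Hist2h2be at -0.54 (limma adjusted p 0.006676) and Hist1h2bg at -0.58 (limma adjusted p 0.006368), and Hist3h2ba and Hist3h2a were the other two. That setting called 2896 genes in all. Without WT libraries 5 to 7, Hist1h4i passed as higher in Adamts16+/H355Q against WT, at 0.52 (limma adjusted p 0.00746), among 3277 genes called. The WT libraries are set apart by their measured expression and not by any label, and the Adamts16+/- libraries lie with the former 4 and the Adamts16+/H355Q libraries with the latter 3 on the first principal component. In each of these settings a genotype was thus set against the WT libraries farthest from it on that component, and whether genotype or another difference between libraries lay behind the calls was not tested.

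Genes that act on histone messages and histone proteins mostly had higher FPKM than the clustered genes. Of 14 histone mRNA factors, 13 were tested and 0 were called in each comparison by limma, with 4, 3 and 5 at an unadjusted p under 0.05. Over all genes the shares at that p were 19.6%, 18.3% and 28.9%, in the same order of comparisons, and these also stand behind the counts of the lists that follow. The difference was below 0 in 1, 2 and 5 of the 13 factors, beside 47.1%, 43.8% and 52.7% of all genes. Cstf2 and Upf1 had the smallest p-values in Adamts16+/- against WT, with log2 differences of 0.23 and 0.19 (limma adjusted p 0.0916 and 0.122). The factors include Slbp, the stem-loop binding protein, at 6.41 FPKM, Npat, the activator of histone gene transcription, at 10.01 FPKM, and Lsm11, a subunit of the U7 particle that cuts histone messages, at 3.32 FPKM. Lsm11 came closest to a call, with a log2 difference of 0.32 in Adamts16+/H355Q against WT (SE 0.0682, limma adjusted p 0.0569). It was at 2.69 to 3.28 FPKM in WT, 2.98 to 3.62 in Adamts16+/- and 3.40 to 4.28 in Adamts16+/H355Q, where it did not overlap WT. Of 17 histone chaperones and assembly factors, 17 were tested and 0 called, with 3, 5 and 4 at an unadjusted p under 0.05 and with 6, 4 and 8 below 0. The smallest adjusted p was that of Rbbp4, a subunit of chromatin assembly factor 1, at -0.47 between Adamts16+/- and Adamts16+/H355Q (limma adjusted p 0.0543).

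The 11 listed genes of variant histones, among them those for H3.3, H2A.Z and H1.0, had means of 4.23 to 104 FPKM and a median of 27.0 FPKM. None was called by limma in any comparison, with 1, 3 and 4 at an unadjusted p under 0.05 and with 7, 5 and 5 below 0. H2afy2, which encodes a macroH2A, had a log2 difference of 0.26 in Adamts16+/- against WT (limma adjusted p 0.173). H1f0 had a log2 difference of -0.31 in Adamts16+/H355Q against WT (limma adjusted p 0.0933). Between Adamts16+/- and Adamts16+/H355Q the smallest p-values went in opposite directions, with -0.36 for H2afv, which encodes an H2A.Z form (limma adjusted p 0.0683), and 0.45 for H2afx, which marks DNA breaks when phosphorylated (limma adjusted p 0.0733). Their sum, 386 to 569 FPKM in WT, 405 to 438 in Adamts16+/- and 442 to 495 in Adamts16+/H355Q, was highest in WT library 7, as was that of the clustered genes.

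DNA replication genes, which are active in the same phase of the cycle, were tested in 29 of 29 cases, with means of 3.07 to 63.6 FPKM. None was called in either comparison with WT, with 10 and 3 at an unadjusted p under 0.05. In Adamts16+/- against WT 9 of the 10 had higher values in Adamts16+/-, Tk1 being the other one, and 7 of the 29 genes were below 0, beside 47.1% of all genes. Of all genes in that comparison 19.6% were at that p, and 8.24% were at that p and lower. The smallest p-values there were those of Mcm4 and Mcm2, subunits of the replicative helicase, both with a log2 difference of 0.26 (limma adjusted p 0.082 and 0.129). In Adamts16+/H355Q against WT 4 of the 29 were below 0, beside 43.8% of all genes, and the smallest p was that of the cyclin Ccna2, at -0.18 (limma adjusted p 0.116). Between the 2 changed genotypes 1 of the 29 was called, beside 10% of all genes. This was Tk1, the thymidine kinase of the nucleotide salvage pathway, lower in Adamts16+/- than in Adamts16+/H355Q, with a log2 difference of -0.34 (SE 0.0936, limma adjusted p 0.0365). Of 15 genes of mitosis and G2, none was called against WT, with 2 and 4 at an unadjusted p under 0.05 and with 8 and 4 below 0. Between the 2 changed genotypes 2 of the 15 were called as higher in Adamts16+/- and 1 as lower, beside 10% of all genes. The mitotic kinases Aurka and Plk1 were higher, by 0.25 and 0.38 on the log2 scale (limma adjusted p 0.0347 and 0.0355), and the cyclin Ccnb1 was lower, at -0.30 (limma adjusted p 0.0439). Summed over the 29 replication genes the level was 489 to 601 FPKM in WT, 544 to 557 in Adamts16+/- and 534 to 590 in Adamts16+/H355Q.

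RNAs without a poly(A) tail also had low FPKM. The list of 19 symbols matched 22 identifiers, of which 6 passed the limit, and limma called none of them, with 2, 0 and 1 at an unadjusted p under 0.05. The difference was below 0 in 0, 2 and 0 of the 6, beside 47.1%, 43.8% and 52.7% of all genes. Its median was 0.51, 0.11 and 0.71, compared with 0.01, 0.02 and -0.02 over all genes. Rn7sk, the small RNA of the 7SK particle, was the highest at 6.35 FPKM. Their sum was 5.11 to 24.2 FPKM in WT, 8.97 to 62.8 in Adamts16+/- and 7.43 to 11.8 in Adamts16+/H355Q. The highest sum, 62.8 FPKM, was in Adamts16+/- library 1, where the clustered histone genes summed to 49.8 FPKM, the highest of that group. WT libraries 5 to 7 had the lowest sums, at 5.11, 6.35 and 7.18 FPKM, while their histone sums were 50.9, 62.3 and 68.2 FPKM. The part of RNA selection in the histone levels was not tested.

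**Figure D5:**
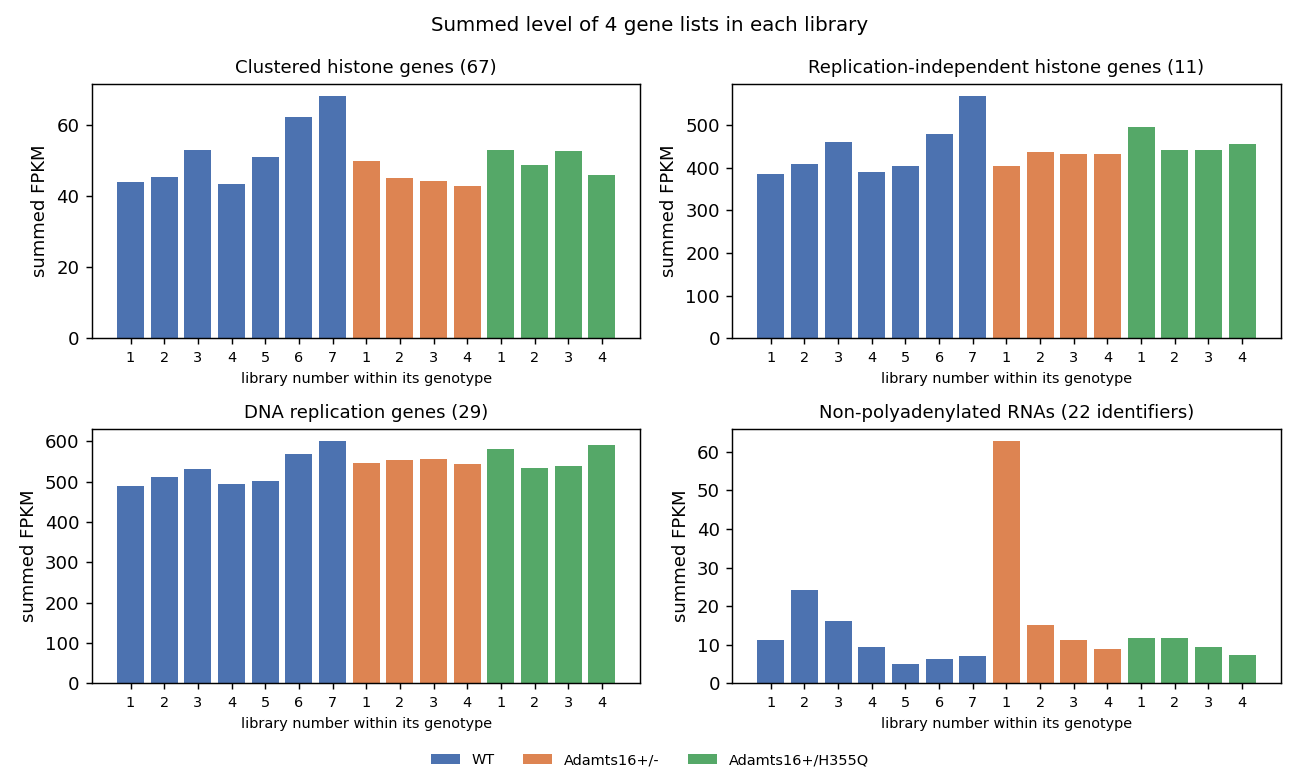
Summed FPKM of gene lists in each of the 15 libraries, coloured by genotype. The lists hold 67 clustered histone genes, 11 variant histone genes (titled replication-independent), 29 DNA replication genes and 22 identifiers of RNAs without a poly(A) tail. Clustered histone genes are highest in WT libraries 6 and 7, at 62.3 and 68.2 FPKM, and the last list is highest in Adamts16+/- library 1, at 62.8 FPKM.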

How the data were processed

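RNA sequencing of 15 mouse heart libraries was used. Per the labels' protocols, TRIzol was used to extract total RNA, and the VAHTS Universal V6 kit to make libraries. Tools named in the submitters' processing notes, without roles, are DESeq2, fastp, HISAT2, HTSeq and R 3.2.0. The deposited table holds FPKM for each gene and library. How the authors computed FPKM, on which genome build and annotation, and how multiply matching fragments were treated was not given in the sources used here. Between 56.1% and 66.9% of low values were whole multiples of the value of 1 fragment within 0.1 step, so whole reads were not recovered and no count model was used.

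Symbols, transcripts and gene types were taken from GENCODE vM21 (GRCm38), which matched 55154 of 55335 identifiers, and promoters from RefSeq (GRCm38.p6). Tests used limma 3.58.1 in R 4.3.3 with the variance trend on log2(FPKM + 0.5). The 15172 genes whose mean reached 0.5 FPKM were fitted together over 15 libraries with genotype as the only term. Alternatives covered the pseudocount, filter, scaling, weights, a replicate block, and fits without single libraries or sets of WT libraries.

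Members, gene lists and these tests were chosen with earlier results of these data known. Named were members called in any comparison, the 4 highest of each family, the testis genes Hist1h1t, Hist1h2aa and Hist1h2ba, and in each list genes called or with the smallest p, of which the text gives a part. Beyond the rule, other members are named where a count, a pair or a near-identical copy is described, and list genes by their function, after their values were seen. Intervals are 95% limma intervals, and the number of libraries limits their precision.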

Additional observations from a re-analysis of the deposited data

Results flagged for a closer look

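Of 70 groups of 4 to 7 libraries examined over 24 members, 7 held a library far from the rest of its group. Chance flags about 1 in 20 groups of normally distributed values, a rate that does not hold for genes mostly listed at 0. Hist1h2bc was at 10.4 FPKM in Adamts16+/H355Q library 1 and at 8.43 to 8.73 in the other 3. Hist1h4i was at 5.36 FPKM in WT library 7, against 1.79 to 3.15 in the other 6. Hist1h1b was at 0.0106 FPKM in WT library 3, against 0.188 to 0.308 in the others. The remaining 4 are testis genes near 0, where a single value above 0 is always flagged when all others are 0. Hist1h2ba was at 0.0253 FPKM in WT library 3, 0.0572 in Adamts16+/- library 1 and 0.012 in Adamts16+/H355Q library 3. Hist1h2aa was at 0.00938 FPKM in WT library 1 and listed at 0 in every other library.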

How the results depend on the processing

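Over 36 member differences, 29 alternative settings gave 1029 values, of which 957 kept their direction and side of the threshold, 10 passed the threshold where the reported value had not, and 62 changed sign, 30 of them when 1 library was left out. Some of these values could not change sign, because leaving out a library of the group not compared, or the variance trend, leaves a difference as it was. The count that kept direction is therefore no measure of stability. The cause was not tested. In Adamts16+/- against WT, log2 differences that changed sign were, for Hist1h4k, 0.008 with a pseudocount of 0.1, 0.059 with TPM scaling, 0.055 with array weights and 0.217 without WT libraries 1 to 4. For Hist1h2ag they were 0.023 with TPM scaling, 0.012 with quantile normalization and 0.158 with array weights, and for Hist1h4i -0.347 without WT libraries 1 to 4. In Adamts16+/H355Q against WT, TPM scaling gave 0.001 for Hist1h2bc, and array weights gave 0.020 for Hist1h2bc, 0.090 for Hist1h2bg and 0.035 for both Hist1h4h and Hist1h4m. Without WT libraries 1 to 4 the values were -0.264 for Hist3h2ba, -0.110 for Hist1h4i, 0.010 for Hist1h4k, -0.158 for Hist1h2ag and 0.159 for Hist1h4m.

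The replicate numbers did not pair the libraries: correlations of the deviations of same-numbered libraries ran from -0.227 to 0.205, and 3 of 12 libraries matched best with their own number. Numbers 5 to 7 occur only in WT, so a block for each number takes those libraries out of the differences. A fit with this block therefore had to give the same sign changes as leaving out WT libraries 5 to 7. These were 0.036 for Hist1h2bc, 0.051 for Hist1h2bg and 0.184 for Hist1h2ag in Adamts16+/- against WT, and 0.143 for Hist1h2bc, 0.219 for Hist1h2bg, 0.037 for Hist1h4h and 0.002 for Hist2h2be in Adamts16+/H355Q against WT. With the block, 1 member (Hist1h4i) and 2762 genes were called in Adamts16+/H355Q against WT, 8 genes in Adamts16+/- against WT and 2931 between the changed genotypes.

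Leaving out 1 library gave, in Adamts16+/- against WT, -0.058 to 0.169 for Hist1h4i, -0.166 to 0.073 for Hist1h4k, -0.263 to 0.2 for Hist1h2ag, -0.121 to 0.345 for Hist1h4m and -0.312 to 0.003 for Hist1h2bn. In Adamts16+/H355Q against WT it gave -0.114 to 0.037 for Hist1h2bc, -0.02 to 0.151 for Hist3h2ba, -0.14 to 0.029 for Hist1h2bg, -0.156 to 0.016 for Hist1h4h and -0.19 to 0.11 for Hist1h4m, and between the changed genotypes -0.362 to 0.101 for Hist1h2ag and -0.089 to 0.377 for Hist1h4m. The number of members called was 0 to 1, 0 and 0.

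All genes called numbered 417 in Adamts16+/- against WT, 57 in Adamts16+/H355Q against WT and 1524 between the changed genotypes. In that order, array weights gave 1058, 2854 and 4352 (with 1 member, Hist1h4i, in the second and 1, Hist3h2ba, in the third), leaving out WT libraries 5 to 7 gave 59, 3277 (1 member) and 3500, leaving out WT libraries 1 to 4 gave 2896 (5 members), 18 and 2609, fits of only the groups compared gave 272, 24 and 3021, and no filter gave 157, 24 and 580. TPM scaling gave 754 in the first, and protein-coding genes alone gave 37 and quantile normalization 117 in the second. Leaving out 1 library gave 42 to 463, 21 to 1416 and 286 to 2483. The lowest came without Adamts16+/- library 1, without Adamts16+/H355Q library 3 or 4, and without Adamts16+/H355Q library 2, and the highest of the latter comparisons without WT library 7. Counts also moved by over 1.5 times without WT library 5 (168) or 6 (229) or Adamts16+/- library 2 (76), 3 (91) or 4 (149) in the first comparison, without WT library 2 (22) or 3 (24) or Adamts16+/- library 1 (37) in the second, and without Adamts16+/- library 1 (376), 2 (374) or 3 (530) or Adamts16+/H355Q library 1 (628), 3 (1011) or 4 (683) in the third. FPKM without counts leave the depth behind low members approximate. Of the 55 members under the limit, Hist2h2aa2, listed at 0 in all 15 libraries, entered no test, and the others entered only in alternatives. The fit held 66 members without the filter, 35 under TPM scaling and 13 when only the 2 changed genotypes were fitted, with 0 members called in each.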
